A study of Mus musculus with 16 samples.

Results

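Matrix metalloproteinases are zinc enzymes that cut collagens and other proteins around cells, and the tissue inhibitors of metalloproteinases (TIMPs) bind and block them. The 10 genes described here are 8 metalloproteinases (Mmp2, Mmp3, Mmp8, Mmp9, Mmp12, Mmp13, Mmp14 and Mmp19) and 2 inhibitors (Timp1 and Timp2). They were chosen by gene symbol from 37310 genes counted in F4/80+ adipose tissue macrophages (ATMs) of male mice. High-fat diet lasted 4 weeks (ST-HFD) or 12 weeks (LT-HFD), with 4 libraries for each genotype, WT or IRF5-KO, at each duration. IRF5 is a transcription factor of inflammatory macrophages. IRF5-KO mice carried floxed Irf5 alleles and Cre recombinase under the Lyz2 (LysM) promoter, which acts in myeloid cells, and WT mice were their littermates. Every mouse in both groups received high-fat diet, so no lean group enters these comparisons, and mice on the longer diet were also older.

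Most of these enzymes are made as inactive proenzymes that need a cut to become active. Mmp14 sits in the cell membrane and, with Timp2 as an adaptor, activates Mmp2. Mmp2 and Mmp9 are the gelatinases, Mmp8 and Mmp13 are collagenases, Mmp3 is a stromelysin that also activates other proenzymes, and Mmp12 is the macrophage elastase. In fat, matrix turnover by macrophages and by fibroblast-like preadipocytes accompanies the growth of adipocytes. An mRNA level does not report enzyme activity.

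Levels are CPM (reads scaled to a common library size with edgeR's TMM factors), each library is 1 replicate, and errors are SD (n = 4) unless named otherwise. ST-HFD libraries held 3860469 to 4958131 counts and LT-HFD libraries 3279332 to 3792898, so that 1 count was worth 0.188 to 0.349 CPM. The 3 largest features took 18.6 to 24.1% of the counts in ST-HFD libraries and 26.1 to 34.5% in LT-HFD libraries. Neither measure overlapped between durations, and their part in the differences between durations was not tested. The labels were checked on Irf5 and Lyz2. Irf5 stood at 238 ± 23.2 CPM in WT and 262 ± 11.5 CPM in the libraries labelled IRF5-KO on ST-HFD, and at 193 ± 20.1 and 229 ± 26.5 CPM on LT-HFD. The targeted gene was therefore not lower in either set labelled IRF5-KO, and because reads were summed over the whole gene, loss of single exons cannot be read from it. Lyz2, where Cre is inserted, stood at 3429 ± 288 CPM in WT and 1757 ± 251 CPM in IRF5-KO on ST-HFD, and at 3673 ± 483 and 1789 ± 182 CPM on LT-HFD, without overlap between genotypes at either duration. In WT, Irf5 was lower on LT-HFD than on ST-HFD by the labels (log2 fold change -0.30, standard error (SE) 0.11, edgeR adjusted p = 0.0485), whereas a plot of WT ATMs in the paper names most of the points at higher Irf5 values LT-HFD. Durations were taken from the labels, and an exchange of the 2 durations would turn the sign of every difference between ST-HFD and LT-HFD given below. All 9 macrophage markers had counts in every library, and their sum was lower on LT-HFD. It ran from 8227 to 9515 CPM in WT and 7782 to 8910 CPM in IRF5-KO on ST-HFD, and from 6686 to 8139 CPM and 6406 to 6701 CPM on LT-HFD, without overlap of durations in either genotype.

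Promoter sequences are shown, among genes with a window, for those called between durations and for Timp2, whose level varied least. Mmp13, Mmp12, Mmp3 and Mmp8 lie in that order in 1 cluster of metalloproteinase genes on chromosome 9 and are read from the same strand. Windows were found for 7 of the 10 genes (Mmp3, Mmp8, Mmp12, Mmp13, Mmp14, Timp1 and Timp2), and Mmp12 had 2 of them. Each sequence is the 250 bases before the transcription start in RefSeq, on GRCm38.p6, written 5′ to 3′ in the direction of the gene. Capitals mark every match, on either strand, to 5 motifs. The AP-1 motif was TGANTCA, where N is any base. The interferon-stimulated response element (ISRE) was a pair of GAAA repeats spaced by 2 bases of any kind, and the NF-kB motif was GGG and CC spaced by 5. The PEA3 motif, bound by ETS factors, was AGGAAG. The motif of the TATA box was TATAAA. Overlapping matches run together.
Mmp13, chr9:7272264-7272513, plus strand: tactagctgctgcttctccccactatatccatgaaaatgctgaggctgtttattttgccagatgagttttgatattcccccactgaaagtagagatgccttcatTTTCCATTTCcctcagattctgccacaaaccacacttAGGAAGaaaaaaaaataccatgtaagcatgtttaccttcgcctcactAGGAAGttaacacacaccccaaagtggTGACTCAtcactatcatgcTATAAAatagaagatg
Mmp3, chr9:7445572-7445821, plus strand: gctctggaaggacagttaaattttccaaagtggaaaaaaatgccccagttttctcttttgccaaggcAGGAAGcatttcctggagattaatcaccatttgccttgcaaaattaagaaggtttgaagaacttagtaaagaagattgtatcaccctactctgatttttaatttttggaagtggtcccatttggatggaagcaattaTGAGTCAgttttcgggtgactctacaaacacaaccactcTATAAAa
Mmp14, chr14:54431348-54431597, plus strand: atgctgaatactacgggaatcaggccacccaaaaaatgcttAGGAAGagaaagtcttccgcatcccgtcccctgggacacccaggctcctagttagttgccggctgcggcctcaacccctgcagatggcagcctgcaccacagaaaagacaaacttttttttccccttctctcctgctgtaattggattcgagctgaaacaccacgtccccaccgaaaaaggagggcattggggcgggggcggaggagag
Timp1, chrX:20869916-20870165, plus strand: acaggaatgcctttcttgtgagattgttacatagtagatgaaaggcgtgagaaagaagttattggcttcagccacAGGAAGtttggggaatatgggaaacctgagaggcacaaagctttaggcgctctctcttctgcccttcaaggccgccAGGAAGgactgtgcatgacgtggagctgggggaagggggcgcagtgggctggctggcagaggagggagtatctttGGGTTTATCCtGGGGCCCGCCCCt
Timp2, chr11:118355412-118355661, minus strand: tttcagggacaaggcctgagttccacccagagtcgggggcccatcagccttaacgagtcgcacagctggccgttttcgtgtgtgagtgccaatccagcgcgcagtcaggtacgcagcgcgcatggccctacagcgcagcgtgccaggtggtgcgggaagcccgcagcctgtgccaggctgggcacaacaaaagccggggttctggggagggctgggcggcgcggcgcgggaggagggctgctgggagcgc
An AP-1 match began 35 bases upstream of the start of Mmp13 and 46 bases upstream of that of Mmp3, and another began 44 bases upstream of the second Mmp12 start. AP-1 matches occurred in 6.75% of 32851 promoter windows of this length. Mmp13 also held an ISRE match, beginning 146 bases upstream, found in 2.98% of windows, and was the only window of these genes with one. Mmp13 and Mmp3 both held a TATA match (12.4% of windows). PEA3 and NF-kB matches were common (29.5% and 45.8% of windows). Mmp14 held only PEA3, Timp1 held PEA3 and NF-kB matches, and Timp2 held none of these letters. A match describes the sequence and does not show that a factor bound there.

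Per kilobase of merged exons, Timp2 stood far above the rest. Its mean over 16 libraries was 275 CPM per kb, and its lowest library (232) lay above the highest library of any other gene (Mmp2, 112). Mmp19 (31.6), Mmp2 (30.9) and Mmp12 (27.2) followed in mean CPM per kb, and their ranges over libraries overlapped. Mmp9 (12.8) and Mmp14 (11.6) came next, then Timp1 (4.19), Mmp3 (3.15) and Mmp13 (1.49), again with overlapping ranges. Mmp8 was near 0 (0.067). The length used mattered for Mmp12 and Mmp14, whose merged exons (7237 and 5960 bases) exceed their principal transcripts (3607 and 2596 bases). With principal transcripts, Mmp12 ranked second with 54.6 CPM per kb and Mmp14 rose to 26.7, ahead of Mmp9.

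**Figure D1:**
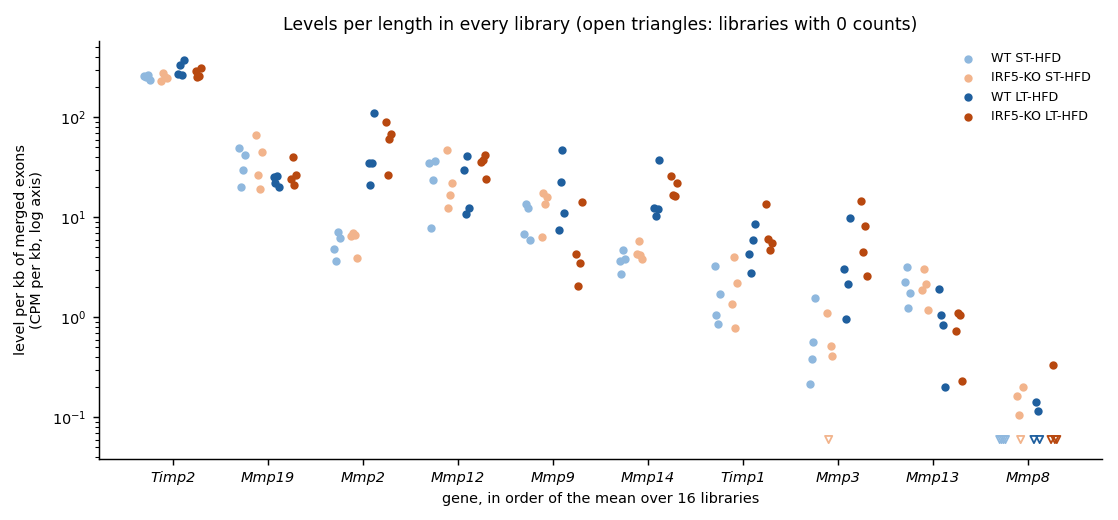
Level per kb of merged exons (CPM per kb, log axis) of the 10 genes in each library, in order of the mean over 16 libraries, with colours for the 4 groups. Timp2 lies between 232 and 377 CPM per kb in all 16 libraries, Mmp2 and Mmp14 separate the durations, and open triangles mark libraries with 0 counts.

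Mmp2 and Mmp14, the gelatinase and its membrane activator, were both several-fold higher on LT-HFD in both genotypes. Mmp2 (ENSMUSG00000031740, GRCm38 chromosome 8, 92827291 to 92853420, 14 merged exons) stood at 16.2, 12.3, 24.0 and 21.1 CPM in WT replicates 1 to 4 on ST-HFD and at 21.9, 23.4, 22.6 and 13.3 CPM in IRF5-KO. On LT-HFD it stood at 117, 70.6, 117 and 377 CPM in WT and at 305, 90.3, 204 and 229.5 CPM in IRF5-KO. Every LT-HFD library was above every ST-HFD library, and the spread on LT-HFD was wide. The difference was 9.27-fold in WT (log2 3.21, SE 0.46, edgeR adjusted p = 7.2e-05) and 10.2-fold in IRF5-KO (log2 3.35, SE 0.46, edgeR adjusted p = 3.5e-05). Mmp14 (ENSMUSG00000000957, chromosome 14, 54431612 to 54445364, 11 merged exons) stood at 21.7, 16.3, 27.8 and 22.6 CPM in WT and 25.5, 34.2, 25.2 and 22.9 CPM in IRF5-KO on ST-HFD. The LT-HFD values were 73.5, 62.2, 72.0 and 222 CPM in WT and 155, 98.7, 98.6 and 131 CPM in IRF5-KO. The durations again did not overlap in either genotype, and the same WT library, replicate 4, was highest for both genes. Mmp14 rose 4.87-fold in WT (log2 2.28, SE 0.34, edgeR adjusted p = 9.4e-05) and 4.49-fold in IRF5-KO (log2 2.17, SE 0.33, edgeR adjusted p = 0.00010). Without WT LT-HFD replicate 4, the WT log2 fold changes were 2.47 for Mmp2 and 1.65 for Mmp14, and both calls remained. Leaving out any other library of either genotype also kept both calls.

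These calls stand against a wide background. Of 11560 genes tested over 16 libraries, 25.3% passed an adjusted p of 0.05 between durations in WT (12.1% higher and 13.2% lower on LT-HFD) and 32.8% in IRF5-KO (15.6% higher and 17.2% lower). Of the 9 metalloproteinases and inhibitors tested, 4 were called higher in WT (Mmp2, Mmp14, Mmp3 and Timp1) and none lower. In IRF5-KO the same 4 were called higher and Mmp13 lower. The median log2 fold change of the 9 was 1.19 in WT and 0.49 in IRF5-KO, beside 0.02 and 0.04 over all tested genes. The durations did not overlap for 26.1% of tested genes in WT (12.3% higher, 13.8% lower) and 29.4% in IRF5-KO (14.3% higher, 15.2% lower). Among the 9 genes, Mmp2 and Mmp14 lay wholly higher on LT-HFD in WT, and in IRF5-KO the 4 called higher did, with Mmp13 wholly lower. The labels name no batch, and the durations cannot be told apart from the age of the mice or from any difference in when the libraries were made.

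**Figure D2:**
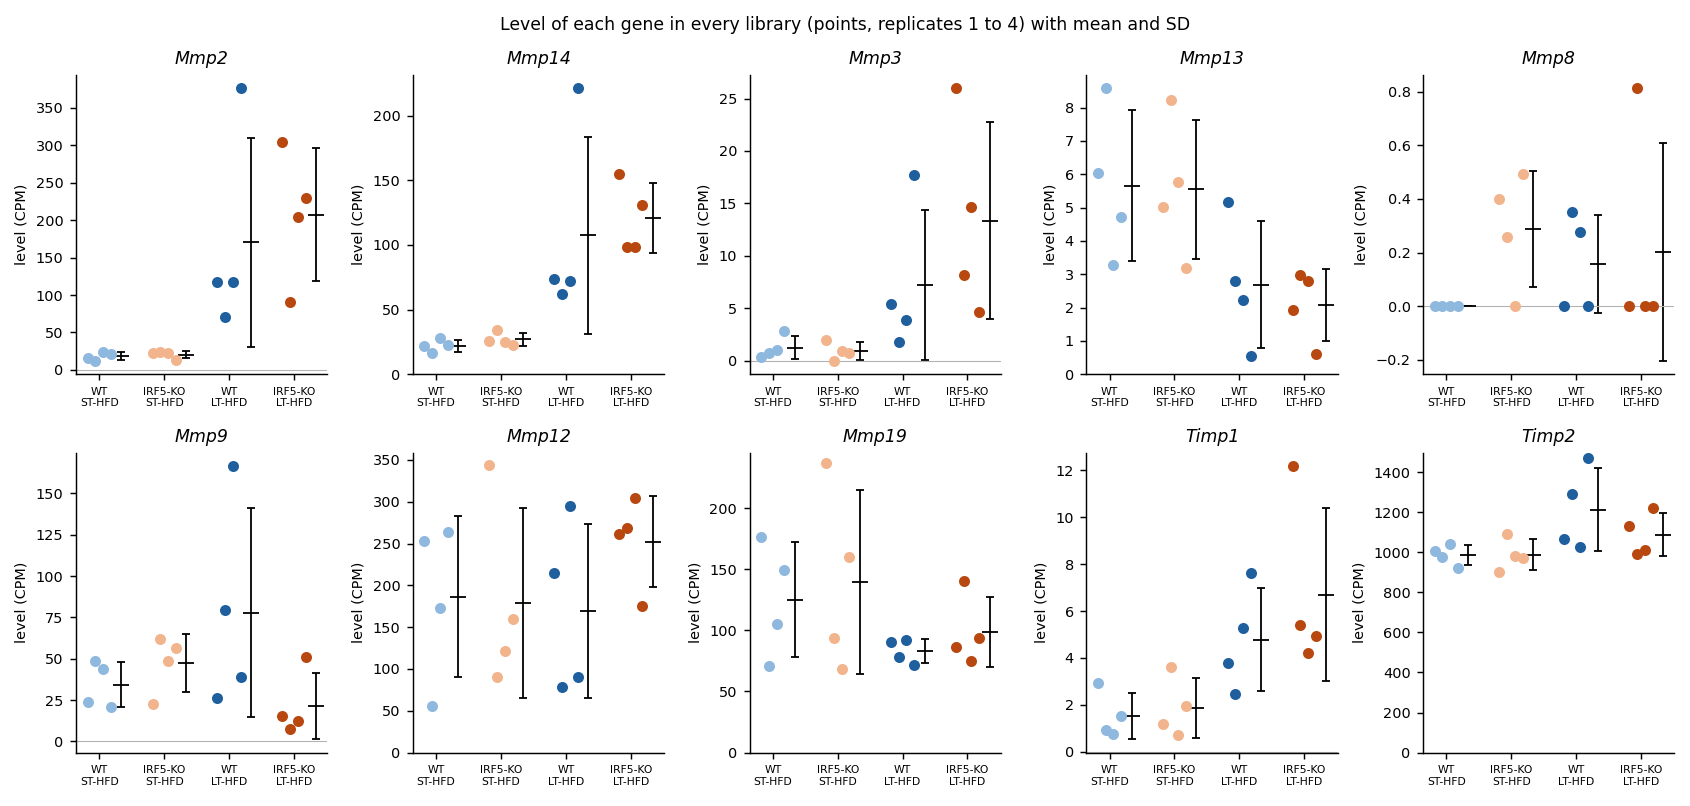
Level (CPM) of each of the 10 genes in every library, by genotype and diet duration. Points are replicates 1 to 4 from left to right and bars are the mean ± SD (n = 4). On LT-HFD every library has 70.6 CPM of Mmp2 or more, while no ST-HFD library exceeds 24.04 CPM, whereas Timp2 stays between 903 and 1469 CPM throughout.

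Mmp3 and Mmp13, both in the chromosome 9 cluster, differed in opposite directions between durations. Mmp3 (ENSMUSG00000043613, 7445822 to 7455975, 10 merged exons) was barely counted on ST-HFD, at 0.390, 0.697, 1.01 and 2.83 CPM in WT and 2.01, 0, 0.924 and 0.739 CPM in IRF5-KO. LT-HFD libraries held 5.43, 1.75, 3.89 and 17.7 CPM in WT and 25.99, 8.13, 14.6 and 4.63 CPM in IRF5-KO. The durations overlapped in WT through ST-HFD replicate 4 and LT-HFD replicate 2, and did not overlap in IRF5-KO. Mmp3 was 5.65-fold higher on LT-HFD in WT (log2 2.50, SE 0.77, edgeR adjusted p = 0.0232) and 13.5-fold higher in IRF5-KO (log2 3.75, SE 0.78, edgeR adjusted p = 0.00144). The WT call was lost when any of WT ST-HFD replicates 1, 2 or 3 or WT LT-HFD replicate 4 was left out (edgeR adjusted p of 0.0555 to 0.169, and log2 1.55 without WT LT-HFD replicate 4). Without WT ST-HFD replicate 4 the WT log2 fold change was 3.38. The IRF5-KO call was kept in all 8 such fits, with log2 4.48 without ST-HFD replicate 1. At most 15 counts stood behind an ST-HFD library of Mmp3, so its ST-HFD level is known only roughly.

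Mmp13 (ENSMUSG00000050578, 7272514 to 7283331, 10 merged exons), the main interstitial collagenase of the mouse, stood at 6.05, 8.59, 3.29 and 4.71 CPM in WT and 5.01, 8.23, 5.78 and 3.20 CPM in IRF5-KO on ST-HFD. LT-HFD libraries held 5.16, 2.80, 2.23 and 0.544 CPM in WT and 1.94, 2.98, 2.81 and 0.618 CPM in IRF5-KO. Every IRF5-KO library on LT-HFD lay below every one on ST-HFD, and in WT only replicate 1 on LT-HFD reached into the ST-HFD range. Mmp13 was 2.60-fold lower on LT-HFD in IRF5-KO (log2 -1.38, SE 0.51, edgeR adjusted p = 0.0473). In WT the log2 fold change was -1.07 (SE 0.50, edgeR adjusted p = 0.129). With the replicate number as a block within each duration it was -1.30 (edgeR adjusted p = 0.0249). No block spans both durations, so that fit leaves the spread between replicate numbers out of its error and is not counted as a call. The numbers also did not pair libraries on LT-HFD. The IRF5-KO call rested on few counts (2 to 11 per LT-HFD library) and was lost when any of 7 of its 8 libraries was left out (edgeR adjusted p of 0.0506 to 0.139). It held only without ST-HFD replicate 4 (edgeR adjusted p = 0.0345). In WT, Mmp13 passed without LT-HFD replicate 1 (edgeR adjusted p = 0.0363).

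**Figure D3:**
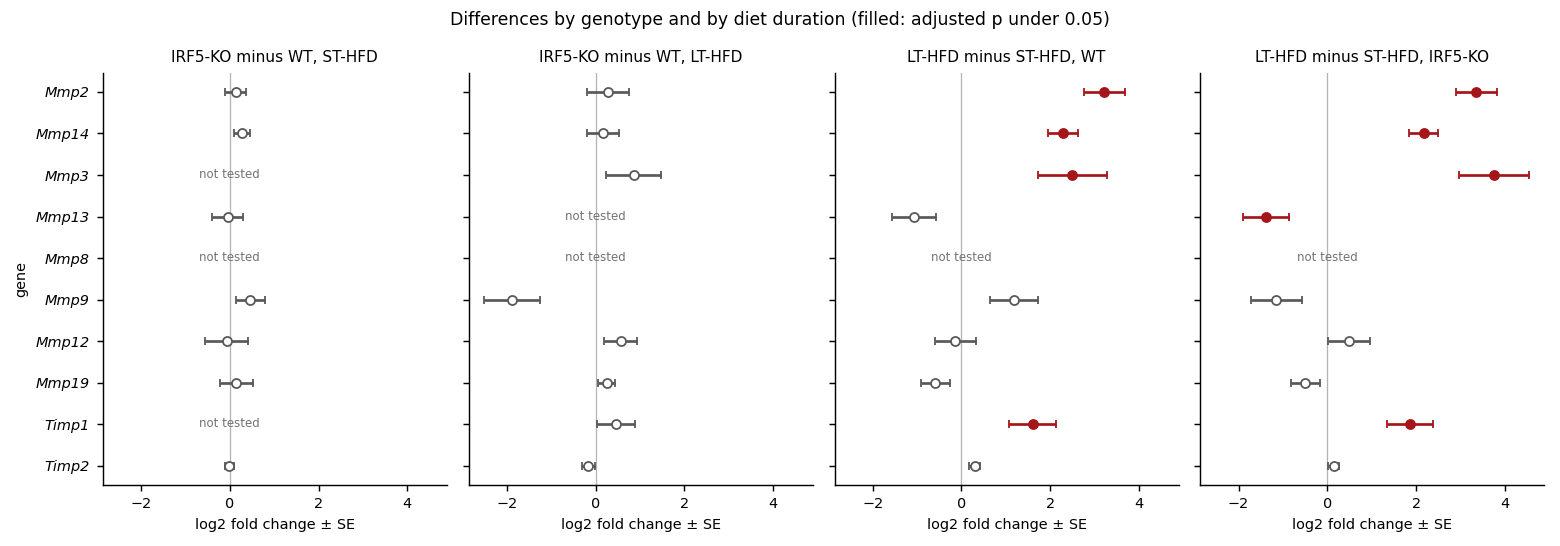
Log2 fold change with its SE for each gene in 4 comparisons, IRF5-KO minus WT at each duration and LT-HFD minus ST-HFD in each genotype. Filled red points passed an adjusted p of 0.05, all of them between durations, and genes below the filter on low counts are written as not tested.

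Mmp9 was the gene whose genotype difference was largest in size, though it was not called. Mmp9 (ENSMUSG00000017737, chromosome 2, 164940780 to 164955850, 15 merged exons), the gelatinase of leukocytes, stood at 24.0, 48.5, 43.8 and 21.1 CPM in WT and 22.7, 61.7, 48.5 and 56.6 CPM in IRF5-KO on ST-HFD. The LT-HFD values were 26.3, 79.3, 166 and 39.1 CPM in WT and 15.2, 7.32, 12.4 and 51.0 CPM in IRF5-KO. On LT-HFD 3 of 4 IRF5-KO libraries lay below all WT libraries, and replicate 4 lay among them. The level in IRF5-KO was 3.68-fold lower on LT-HFD (log2 -1.88, SE 0.63, edgeR unadjusted p = 0.0118, adjusted p = 0.853 across all genes). On ST-HFD the log2 difference was 0.46 (SE 0.33, edgeR adjusted p = 0.9998). The interaction of genotype and duration was -2.34 on the log2 scale (SE 0.79, edgeR unadjusted p = 0.00882, adjusted p = 0.969 across all genes). Between durations Mmp9 differed by log2 1.19 in WT (SE 0.55, edgeR adjusted p = 0.127) and -1.15 in IRF5-KO (SE 0.58, edgeR adjusted p = 0.136), neither of them called. With no filter on low counts the WT difference passed. Single libraries moved these values: without WT LT-HFD replicate 3 the LT-HFD genotype difference was -1.16, the interaction -1.64 and the difference between durations in WT 0.48. Without IRF5-KO LT-HFD replicate 4 the genotype difference was -2.74 and the interaction -3.21. Without that IRF5-KO library, the difference between durations in IRF5-KO was -2.02 and passed (edgeR adjusted p = 0.0142).

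The sum of 6 dendritic cell markers ran from 17.1 to 67.0 CPM in IRF5-KO on LT-HFD, against 46.7 to 119 CPM in WT on LT-HFD, and from 47.3 to 129 CPM over both genotypes on ST-HFD. Cd209a, a lectin of monocyte-derived dendritic cells, held most of it and fell on LT-HFD in IRF5-KO (log2 -1.52, SE 0.45, edgeR adjusted p = 0.0159), the only 1 of 4 tested markers that did. By genotype 0 of 3 tested markers passed on LT-HFD and 0 of 4 on ST-HFD, and the sums overlapped between genotypes. Pearson r of Mmp9 with the sum was 0.68 over 16 libraries and 0.55 after centring within groups (log2 scale). In IRF5-KO on LT-HFD replicate 4 was highest for both, whereas in WT the library with the most Mmp9, replicate 3, had the lowest sum of its group. Among the other genes, centred r with the dendritic cell sum was -0.74 for Mmp12, 0.69 for Timp2 and -0.61 for Mmp19. For the rest it lay between -0.42 (Mmp3) and 0.15 (Mmp2). Mmp9 also had a centred r of 0.54 with the macrophage marker sum. The part of dendritic cell markers in the Mmp9 values was not tested. Neutrophils, a known source of Mmp9 and Mmp8, were followed by 11 markers with a sum of 15.5 to 46.2 CPM, nearly all of it Csf3r (group means of 18.7 to 35.0 CPM). Ly6g and Elane had 0 counts in all 16 libraries and S100a8 had at most 4. Mmp8 (ENSMUSG00000005800, 7558456 to 7568485 on chromosome 9, 10 merged exons), the neutrophil collagenase, had counts in 6 of 16 libraries and never more than 3. A count of 0 allowed up to 3 counts, or 0.565 to 1.05 CPM by library, so no difference in Mmp8 was detectable at this depth.

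Mmp12 and Mmp19 did not separate genotypes or durations and varied mainly among libraries of the same group. Mmp12 (ENSMUSG00000049723, chromosome 9, 7344381 to 7369499, 11 merged exons) stood at 253, 56.2, 173 and 264 CPM in WT and 344, 90.3, 122 and 160.0 CPM in IRF5-KO on ST-HFD. On LT-HFD it stood at 215, 78.6, 295 and 90.0 CPM in WT and 262, 268, 305 and 175 CPM in IRF5-KO. Within WT the highest library held several times the lowest at each duration, and the groups overlapped in every comparison. The genotype difference was log2 -0.07 on ST-HFD (SE 0.48) and 0.56 on LT-HFD (SE 0.36, edgeR adjusted p = 0.885). The difference between durations was log2 -0.14 in WT (SE 0.47) and 0.49 in IRF5-KO (SE 0.47, edgeR adjusted p = 0.451). Mmp12 shares 157 exon bases with Mmp1b on the opposite strand, and Mmp1b had 0 counts throughout.

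Mmp19 (ENSMUSG00000025355, chromosome 10, 128790910 to 128800824, 9 merged exons), a metalloproteinase first described in rheumatoid synovium, stood at 176, 70.6, 105 and 149 CPM in WT and 237, 93.4, 68.2 and 160.0 CPM in IRF5-KO on ST-HFD. After the longer diet it was 90.1, 78.3, 92.3 and 71.8 CPM in WT and 86.3, 140.4, 75.0 and 93.6 CPM in IRF5-KO. The WT libraries spread less on LT-HFD than on ST-HFD, and groups overlapped throughout. The difference between durations was log2 -0.59 in WT (SE 0.32, edgeR adjusted p = 0.204) and -0.50 in IRF5-KO (SE 0.32, edgeR adjusted p = 0.252). By genotype it was 0.15 on ST-HFD (SE 0.38) and 0.25 on LT-HFD (SE 0.19), neither called. Exons of Mmp19 overlap Gm47093 (212 bases) and Tmem198b (789 bases) on the opposite strand, and the strand setting of the counting is not given in the sources used here.

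Both genes varied together with genes of lipid-associated macrophages, the Trem2+ cells that gather around dying adipocytes. The summed level of 9 such genes (Trem2, Cd9, Lpl, Gpnmb, Fabp5, Lgals3, Cd36, Itgax and Atp6v0d2) ranged from 2120 to 9070 CPM on ST-HFD and from 3332 to 10352 CPM on LT-HFD. In WT on ST-HFD and on LT-HFD, and in IRF5-KO on ST-HFD, the library highest for the sum was highest for Mmp12 and the library lowest for the sum was lowest for it. In IRF5-KO on LT-HFD, replicate 2 had the highest sum and replicate 3 the most Mmp12. For Mmp19 the lowest library was that of the sum only in WT on ST-HFD, and the highest was that of the sum in the other groups. After centring within the 4 groups, Pearson r with the sum was 0.94 for Mmp12 and 0.87 for Mmp19 over 16 libraries (log2 scale). Without centring it was 0.94 for Mmp12 and 0.67 for Mmp19. These libraries share 1 normalization, and r is given as a description. Among the 9 genes, Cd9 (2.57-fold) and Trem2 (2.15-fold) rose on LT-HFD in IRF5-KO (edgeR adjusted p = 0.0207 and 0.0420), and 0 of 9 passed in WT or by genotype.

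**Figure D4:**
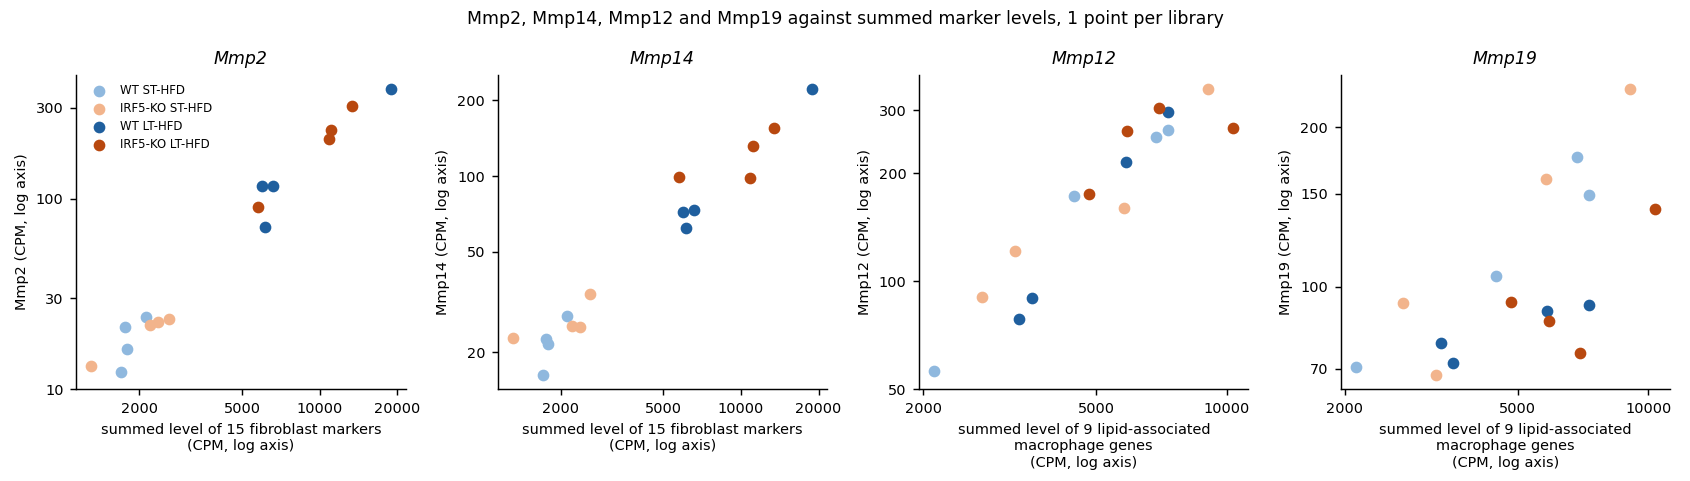
Level of Mmp2 and Mmp14 against the summed level of 15 fibroblast markers, and of Mmp12 and Mmp19 against that of 9 lipid-associated macrophage genes, both in CPM on log axes, with 1 point per library and colours for the 4 groups. Mmp2 and Mmp14 rise with the fibroblast sum, which separates the durations, whereas Mmp12 varies with its sum within every group.

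The 2 inhibitors differed in level and in how they varied. Timp1 (ENSMUSG00000001131, chromosome X, 20870166 to 20874735, 6 merged exons), an inducible inhibitor, stood at 2.93, 0.929, 0.759 and 1.51 CPM in WT and 1.20, 3.60, 0.693 and 1.97 CPM in IRF5-KO on ST-HFD. On LT-HFD it stood at 3.80, 2.45, 5.28 and 7.61 CPM in WT and 12.2, 5.42, 4.21 and 4.94 CPM in IRF5-KO. The durations overlapped in WT through ST-HFD replicate 1 and LT-HFD replicate 2, and did not overlap in IRF5-KO. Timp1 was 3.04-fold higher on LT-HFD in WT (log2 1.60, SE 0.53, edgeR adjusted p = 0.0344) and 3.62-fold higher in IRF5-KO (log2 1.86, SE 0.52, edgeR adjusted p = 0.0109). The WT call was lost without ST-HFD replicate 2, 3 or 4 or without LT-HFD replicate 3 or 4 (edgeR adjusted p of 0.0661 to 0.130), and the IRF5-KO call without LT-HFD replicate 1 (edgeR adjusted p = 0.0594). Timp1 lies inside Syn1 on the opposite strand and shares no exon bases with it.

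Timp2 (ENSMUSG00000017466, chromosome 11, 118301069 to 118355740, minus strand, 6 merged exons) stood at 1009, 977, 1043 and 923 CPM in WT and 903, 1090.4, 984 and 974 CPM in IRF5-KO on ST-HFD. After the longer diet it was 1068, 1292, 1027 and 1469 CPM in WT and 1134, 990.0, 1012 and 1219.5 CPM in IRF5-KO. Its highest library held 1.63 times its lowest, the narrowest range of the 10 genes. The difference between durations was log2 0.30 in WT (SE 0.12, edgeR adjusted p = 0.0785) and 0.14 in IRF5-KO (SE 0.12, edgeR adjusted p = 0.391). The WT difference passed without LT-HFD replicate 3 (edgeR adjusted p = 0.0389).

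Set against each other per kilobase, the 2 inhibitors outweighed the 8 metalloproteinases in all 16 libraries. The ratio of the sums ran from 2.44 to 4.90 in WT and from 1.73 to 4.00 in IRF5-KO on ST-HFD, and from 1.65 to 3.76 in WT and 1.55 to 2.03 in IRF5-KO on LT-HFD. The groups overlapped in each of the 4 comparisons. With principal transcript lengths the lowest ratio was 1.16. The makeup of the metalloproteinase sum changed with duration: Mmp2 was 6.78 ± 1.77% of it in WT and 7.31 ± 3.25% in IRF5-KO on ST-HFD, and 32.5 ± 15.5% and 37.4 ± 11.3% on LT-HFD. Mmp19 was 42.0 ± 5.05% and 41.3 ± 9.41% of it on ST-HFD and 18.3 ± 6.66% and 18.5 ± 8.52% on LT-HFD. The Mmp19 shares overlapped between durations in IRF5-KO (at least 30.4% on ST-HFD and at most 31.0% on LT-HFD) and not in WT. All these shares use merged exons, with which Mmp12 was 29.1 ± 9.79% in WT and 25.7 ± 7.46% in IRF5-KO on ST-HFD. With principal transcript lengths, Mmp12 ran from 23.8 to 51.3% in WT and from 26.1 to 49.6% in IRF5-KO on ST-HFD. The Mmp19 share was not computed with those lengths. The Mmp19 level itself was not called between durations, and the metalloproteinase sum averaged 82.9 ± 23.2 CPM per kilobase in WT and 90.9 ± 31.8 in IRF5-KO on ST-HFD, against 142.5 ± 50.7 and 158.9 ± 28.2 on LT-HFD, with overlap between durations in both genotypes. The sum reports mRNA and not the balance of active enzyme and inhibitor.

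Between genotypes, none of the genes was called at either duration, and few genes of any kind were. On ST-HFD 0.00913% of 10958 tested genes passed, which was 1 gene, Lyz1, and on LT-HFD 0.0182% of 10987, which were Lyz1 and Lyz2. Lyz1 is named after its values were seen. At an unadjusted p under 0.05, edgeR had 1.84% of genes on ST-HFD and 0 of the 7 genes tested here, and 5.72% on LT-HFD and 1 of 8 (Mmp9). DESeq2's Wald test also called 0 of these genes at either duration, though over all genes it called more than edgeR at each. The replicate numbers, taken as pairs on ST-HFD, gave 2 calls over all genes there and 0 among these genes. On ST-HFD Mmp2 differed by log2 0.13 (SE 0.23), Mmp14 by 0.28 (SE 0.18), Mmp13 by -0.04 (SE 0.35) and Timp2 by -0.01 (SE 0.10). On LT-HFD Mmp2 differed by log2 0.27 (SE 0.47), Mmp14 by 0.16 (SE 0.36), Mmp3 by 0.86 (SE 0.62), Timp1 by 0.46 (SE 0.43) and Timp2 by -0.16 (SE 0.14). Without WT LT-HFD replicate 4 the LT-HFD differences were 1.01 for Mmp2, 1.80 for Mmp3 and 0.79 for Mmp14 (edgeR adjusted p = 0.408, 0.390 and 0.192), and over all 8 such fits the lowest values were 0.021, 0.33 and -0.022. The groups overlapped for all 10 genes, while groups stood apart for 1.47% of the genes tested at the shorter and 3.01% at the longer duration, and the wide errors on LT-HFD do not show that the genotypes were alike. Mmp3, Timp1 and Mmp8 on ST-HFD, and Mmp13 and Mmp8 on LT-HFD, fell below the filter on low counts. By edgeR's interaction test, 0 of 9 genes and 0 of all 11560 passed (0% called, 3.93% at an unadjusted p under 0.05, Mmp9 being 1 of those), so a difference in the response to duration between genotypes was not shown for any of them. The comparisons by genotype and by duration share libraries.

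Of 17 other metalloproteinase and TIMP genes, only 4 passed the filter on low counts and were tested between durations, and 3 of these rose in both genotypes. Mmp11, a stromelysin of stromal fibroblasts, rose 13.7-fold in WT (log2 3.78, SE 0.48) and 25.2-fold in IRF5-KO (log2 4.66, SE 0.51). Mmp23, a membrane-anchored enzyme, rose 8.89-fold in WT (log2 3.15, SE 0.55) and 6.36-fold in IRF5-KO (log2 2.67, SE 0.53). On ST-HFD, Mmp11 had 7 to 11 counts per library in WT and 1 to 10 in IRF5-KO. Mmp23 had 4 to 15 and 8 to 20 there, so the folds of both genes are known only roughly. Timp3, the inhibitor that binds to the matrix, rose 6.15-fold in WT (log2 2.62, SE 0.48) and 4.57-fold in IRF5-KO (log2 2.19, SE 0.47). Mmp25, the membrane-type enzyme of leukocytes, was the fourth and was not called. By genotype 0 of 3 tested passed at each duration.

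Genes that activate or restrain these enzymes were mixed. Of 28 tested between durations (from a list of 30), 8 rose and 2 fell in WT, and 10 rose and 4 fell in IRF5-KO, with median log2 fold changes of 0.15 and 0.27. Plat, the tissue-type plasminogen activator, rose 8.29-fold in WT and 7.09-fold in IRF5-KO. Thbs2, a matrix protein that aids clearance of Mmp2, rose 6.26-fold and 7.62-fold, and Adamts5, an aggrecanase, rose 6.39-fold and 4.92-fold. The related Adamts12 (3.67-fold and 3.35-fold) and Adamts2 (3.53-fold and 4.27-fold), a procollagen proteinase, rose too. Lrp1, the endocytic receptor that takes up metalloproteinases and their complexes, fell from 2198 ± 358 to 740.3 ± 172 CPM in WT (log2 -1.57, SE 0.22) and from 2264 ± 708 to 965 ± 161 CPM in IRF5-KO (log2 -1.23, SE 0.22). Adam15 fell in both genotypes (log2 -0.71, SE 0.17, and -1.12, SE 0.17), and in IRF5-KO so did Furin, which cuts the propeptide of Mmp14 (log2 -0.66, SE 0.12), and Adam9 (log2 -0.32, SE 0.089). By genotype 0 of 26 passed on ST-HFD and 0 of 27 on LT-HFD.

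Among 20 matrix proteins that these enzymes cut, 10 rose and 1 fell on LT-HFD in each genotype. The risers named first were Col1a2 (5.16-fold in WT and 5.48-fold in IRF5-KO), Col6a1 (3.48-fold and 3.60-fold), Col6a2 (2.89-fold and 3.12-fold), Col3a1 (3.33-fold and 3.37-fold) and Nid1 (4.58-fold and 4.201-fold). The gene that fell was Fn1, fibronectin, which macrophages also make (log2 -1.28, SE 0.20, in WT and -1.77, SE 0.21, in IRF5-KO). By genotype 0 of 20 passed on ST-HFD and 0 of 19 on LT-HFD. Col1a1, Col1a2 and Col3a1 are also in the list of fibroblast markers.

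**Figure D5:**
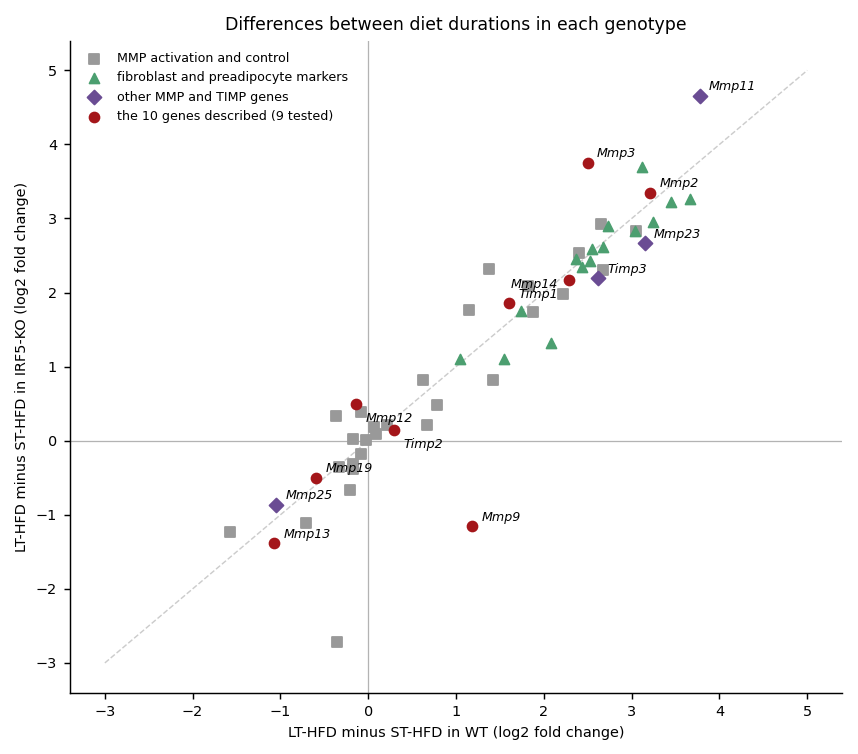
Log2 fold change of LT-HFD over ST-HFD in WT (horizontal) and in IRF5-KO (vertical) for the 9 tested genes of the 10, other metalloproteinase and TIMP genes, genes of activation and control, and fibroblast markers. The dashed line marks equal values. Mmp2, Mmp14 and Timp1 lie near the line among fibroblast markers, and Mmp9 lies off it at 1.19 and -1.15.

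Markers of fibroblasts and preadipocytes rose on LT-HFD alongside these genes. All 15 had counts in all 16 libraries, so none was at 0. Their summed level ran from 1701 to 2118 CPM in WT and 1300.0 to 2604 CPM in IRF5-KO on ST-HFD, and from 5971 to 18855 CPM in WT and 5769 to 13371 CPM in IRF5-KO on LT-HFD. The durations did not overlap, and WT LT-HFD replicate 4, the library highest for Mmp2 and Mmp14 and the highest WT library for Mmp3 and Timp1, had the largest sum. In WT 15 of 15 markers rose (2.06-fold to 12.7-fold, with Pdgfra at 10.9-fold, Pdgfrb at 9.50-fold, Lum at 8.67-fold and Dcn the highest), and in IRF5-KO 13 of 15 passed (all 15 between 2.15-fold and 13.01-fold, with Lum the highest). The folds of Mmp2, Mmp14, Mmp3 and Timp1 in WT all lay inside that range, and in IRF5-KO those of Mmp2, Mmp14 and Timp1 did, while Mmp3 (13.5-fold) lay just above it. Over the 16 libraries, r with the macrophage sum, which was lower on LT-HFD, was -0.89 for Mmp2 and -0.90 for Mmp14 (-0.52 and -0.58 after centring within groups). After centring within groups, r with the fibroblast sum over 16 libraries (log2 scale) was 0.93 for Mmp2, 0.86 for Mmp14, 0.68 for Timp2, 0.47 for Mmp3 and 0.33 for Timp1, and -0.47 for Mmp13, -0.38 for Mmp19, -0.25 for Mmp12 and -0.037 for Mmp9. Their part in these results was not tested. In bulk libraries more cells of a type cannot be told apart from more RNA per cell.

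Other markers moved less evenly. The mast cell proteases Tpsb2 and Cma1 rose on LT-HFD in both genotypes, from 0 to 3 counts per ST-HFD library, too few for a fold, to 4 to 28 counts for Tpsb2 and 2 to 24 for Cma1. The whole list of 7 mast cell markers summed to 1.27 to 3.95 CPM on ST-HFD and 5.94 to 26.8 CPM on LT-HFD. The endothelial receptor Tek rose 5.93-fold in WT and 4.40-fold in IRF5-KO, and was the only endothelial marker of 5 tested that passed. Of 9 macrophage markers, 2 fell and 0 rose in WT, and 3 fell and 2 rose in IRF5-KO, with median log2 fold changes of -0.20 and -0.33. Csf1r fell in both (log2 -0.62, SE 0.12, in WT and -0.88, SE 0.12, in IRF5-KO) and C1qb in IRF5-KO (-0.29, SE 0.11). Adgre1, which encodes F4/80 (0.46, SE 0.15), and the Fc receptor gene Fcgr1 (0.44, SE 0.16) rose in IRF5-KO. By genotype 0 of 9 passed at either duration. Adipocyte markers summed to 100.1 to 182 CPM in every library, and only Cidec changed (log2 -1.05, SE 0.39, in IRF5-KO). Csf3r, the only neutrophil-list gene tested, fell in IRF5-KO (log2 -0.82, SE 0.23). Mesothelial and lymphocyte markers held at most 20.6 and 10.3 CPM in sum, and 0 of the 1 gene tested in each list passed.

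The genes most like the members across the 16 libraries, by Pearson r of log2 CPM, are given for 8 of them. For Mmp2 they were Htra1, Gsn and C1s (r of 0.99, 0.99 and 0.99, and 0.93, 0.93 and 0.91 after centring within groups), and for Mmp14 they were Ndrg2, Mmp2 and Nedd4 (0.99, 0.98 and 0.98, and 0.90, 0.89 and 0.86). Gsn is itself a fibroblast marker of the list. For Mmp12 they were Rnf128, Tmem164 and Zranb3 (0.96, 0.96 and 0.95, and 0.97, 0.96 and 0.96 after centring). Mmp12 kept its likeness within groups, where no duration or genotype separates libraries. For Mmp9 they were Tmem176b, Tmem176a and Pla2g2d (0.90, 0.90 and 0.89, and 0.85, 0.87 and 0.82), and for Timp2 they were Rps4y2, Tgfb2 and Sfrp2 (0.93, 0.93 and 0.91, and 0.92, 0.89 and 0.85). For the sparsely counted genes the nearest were Snap47, Ndufv1 and Golt1b for Mmp3 (0.94, 0.94 and 0.93), Tubb6, Tdp1 and Exosc10 for Mmp13 (0.90, 0.90 and 0.89) and Dram1, Ephx2 and Aldh18a1 for Timp1 (0.92, 0.90 and 0.90). Each was picked as the highest of 11560 genes, so these values describe likeness only.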

How the data were processed

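RNA from F4/80+ cells of epididymal fat was made into stranded, ribosome-depleted total RNA libraries and sequenced in pairs. The authors aligned reads to mm10 with STAR 2.7.3a after fastp 0.19.11 (versions per the labels) and deposited raw counts per gene, without normalization. The annotation release and strand setting are not given in the sources used here. Of 37310 identifiers, 32620 matched GENCODE M21 (GRCm38), used for lengths and coordinates.

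Counts were tested in R 4.3.3 with edgeR 4.0.16 (filterByExpr with a minimum count of 10, TMM, quasi-likelihood test, Benjamini-Hochberg adjustment over all tested genes, called at an adjusted p under 0.05). Genotypes were compared within each duration (8 libraries). Durations and the interaction were fitted over 16 libraries. CPM used TMM factors over all libraries. Correlations used log2 CPM with a prior count of 2. The test was checked on simulated data. Alternatives were DESeq2 1.42.0, other normalizations, filters and samples, a replicate block and leaving out each library. No 2 libraries of a group were duplicates, and the labels do not say whether replicates are separate mice, so p-values measure the spread between these samples.

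Same-numbered WT and IRF5-KO libraries deviated together on ST-HFD (r of 0.382, 0.492, 0.182 and 0.299 for genes averaging 20 counts or more). Some differently numbered libraries were as alike (WT 4 with IRF5-KO 1, r of 0.480, and WT 2 with IRF5-KO 3, r of 0.422). On LT-HFD same-numbered libraries did not deviate together (r of -0.074, -0.150, 0.060 and 0.239). The main fits used no pairs, and the replicate block was run only as an alternative, at both durations.

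The 10 genes, marker lists and tests were chosen with earlier results of these data known. From the other lists, genes past an adjusted p of 0.05 were named, at most 5 in a direction, and for likeness the 3 genes with the highest r. Floors cover counting error only. Exon-level reads and protein sequences were not analysed here. The genes most like Mmp19, and 1 called macrophage marker, are not named here.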

Additional observations from a re-analysis of the deposited data

Results flagged for a closer look

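Within groups of 4 libraries, 5 of 39 tested gene and group combinations held a library set apart by Dixon's 95% criterion, where chance gives about 1 in 20. Mmp2 was 377 CPM and Mmp14 222 CPM in WT LT-HFD replicate 4, against at most 117 and 73.5 CPM in the other 3, and that library also had the highest sum of fibroblast markers. Mmp2 was 13.3 CPM in IRF5-KO ST-HFD replicate 4, below 21.9 to 23.4 CPM in its group, and that library had the lowest fibroblast sum. Timp1 was 12.2 CPM in IRF5-KO LT-HFD replicate 1, against 4.21 to 5.42 CPM. Mmp8 was 0.813 CPM in IRF5-KO LT-HFD replicate 2, which is 3 counts against 0 in the other 3 libraries. With 3 libraries at 0 any count meets the criterion, and 3 counts are within what a count of 0 allows, so this library was not shown to stand apart.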

How the results depend on the processing

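No alternative other than leaving out a library changed the number of these genes called by more than 1.5 times in any comparison. Single calls changed between durations in WT: Mmp9 passed with no filter on low counts (log2 1.17, edgeR adjusted p = 0.0466), Mmp13 under the replicate block (log2 -1.30, edgeR adjusted p = 0.0249) and Timp2 with DESeq2 (log2 0.30, adjusted p = 0.0494). The block changed no other call of these genes. As no block spans both durations, its error between durations leaves out the spread between replicate numbers. Over all genes, calls by genotype on ST-HFD rose from 1 to 2 with no filter, the replicate block, DESeq2 or all 16 libraries. On LT-HFD they went from 2 to 6 with no filter or DESeq2, to 0 under the replicate block, and from 0 to 2 on leaving out 1 library. Calls among these genes between durations ranged from 2 to 5 in WT and 3 to 5 in IRF5-KO on leaving out 1 library. Directions turned for differences near 0: Timp2 by genotype on ST-HFD (3.54e-05 with all 16 libraries) and Mmp14 in the interaction (0.064 under the replicate block). On leaving out 1 library they ran, in log2 by genotype on ST-HFD, from -0.022 to 0.29 (Mmp2), -0.28 to 0.21 (Mmp13), -0.60 to 0.15 (Mmp12), -0.24 to 0.38 (Mmp19) and -0.055 to 0.030 (Timp2), on LT-HFD from -0.022 to 0.79 (Mmp14), between durations in WT from -0.54 to 0.10 (Mmp12), and in the interaction from -0.12 to 0.88 (Mmp2), -0.66 to 0.25 (Mmp13), -0.30 to 0.51 (Mmp14), -0.13 to 0.47 (Mmp19) and -0.27 to 0.76 (Timp1). The cause was not tested. Depth limits Mmp8, and Mmp3, Mmp13 and Timp1 in the groups where they had few counts.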
